A study of Macaca mulatta with 8 samples.

Results

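The genes described are FN1, which encodes fibronectin, and LAMB1 and LAMA1, which encode a beta and an alpha chain of laminin. They are 3 of 14132 named genes on the array. Every probe set to which the platform annotation gives exactly 1 of these symbols was taken, which gave 6 of 52766 probe sets, 2 for each gene. The 3 genes had been picked because their signal was known to differ between the groups, so their differences are given as a description, with no test.

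Granulosa cells of rhesus macaques (Macaca mulatta) were compared in a pair of groups with 4 arrays each. Both groups came from ovaries stimulated with follicle-stimulating hormone (FSH). The cells labelled PM-GC were taken before maturation, with FSH as the sole stimulus, and those labelled VVM-GC after in vivo maturation, with human chorionic gonadotropin (hCG) given after FSH as an ovulatory stimulus. They are called before hCG and after hCG below. The series design calls the cells mural granulosa cells, those of the follicle wall, whereas the source labels speak of cumulus-oocyte complexes; the design's wording was followed. No source used here gives the hours between hCG and collection, the ages, or the animal behind each array. Arrays may therefore share animals, and p-values measure only the spread between these samples, which may be technical.

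Fibronectin is a large secreted glycoprotein that cells assemble into fibrils, and it binds integrins at the cell surface as well as collagens and heparan sulfate. Laminins are trimers of an alpha, a beta and a gamma chain, and they form the sheet on which epithelial cells rest. LAMA1, LAMB1 and the gamma chain LAMC1 together form the classic laminin of embryonic basement membranes. In the ovary the granulosa layer of a follicle sits on such a basal lamina, which is broken down and remodelled around ovulation as the follicle turns into a corpus luteum.

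After hCG the signal of FN1 was higher, that of LAMB1 was higher and that of LAMA1 was lower, in both probe sets of each gene. The mean log2 differences between the groups, as after minus before hCG, were 3.21 and 0.88 for FN1, 1.82 and 2.89 for LAMB1, and -1.37 and -0.64 for LAMA1. In none of the 6 probe sets did the values of the groups overlap. Across all probe sets the groups did not overlap for 19.3%, with 8.38% higher and 10.9% lower after hCG. All 6 were past the threshold of the limma test, an adjusted p below 0.05 over all probe sets, against 14.1% of all probe sets (7.24% higher and 6.85% lower); since the genes were chosen on this contrast, nothing is read from that count.

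The signal of FN1 varied widely before hCG and was higher in every array after it. On its brighter probe set (MmugDNA.31007.1.S1_s_at) the log2 intensities before hCG were 8.58, 10.61, 9.09 and 8.29 in arrays 1 to 4. After hCG they were 11.52, 12.15, 12.66 and 13.10. The suffix of this probe set marks probes that can match more than 1 transcript. Array 2 before hCG stood above the others of its group, but the lowest array after hCG was still 0.91 above it. The means were 9.14 ± 1.03 before and 12.35 ± 0.68 after hCG (SD, n = 4), a difference of 3.21 (SE 0.49) or 9.28-fold. On the linear scale the signal went from 313 to 1559 before hCG to between 2927 and 8774 after it. Without array 2 before hCG the difference was 3.70, and without array 4 before hCG it was 2.93.

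The other FN1 probe set was dim. It was below the median signal of the arrays before hCG (5.51 on the log2 scale, mean of 4 arrays), while the median after hCG was 5.47. It read 5.06, 5.32, 4.66 and 5.21 before hCG and 5.44, 5.93, 6.01 and 6.39 after it. The groups were separated by 0.12, with a difference of 0.88 (SE 0.21), or 1.84-fold. Both FN1 probe sets had array 2 as the highest before hCG, and after hCG both had array 1 as the lowest and array 4 as the highest. Their deviations from the group means had the same sign in 7 of 8 arrays. The 2 probe sets thus gave 1 direction and unequal sizes, and their average difference was 2.05.

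LAMB1 was below the array median in every array before hCG and above it in every array after hCG on its brighter probe set. On that probe set (MmugDNA.527.1.S1_at) the values were 4.61, 5.01, 5.07 and 4.97 before hCG and 7.03, 6.40, 6.31 and 7.22 after it. The gap between the groups was 1.24. The means were 4.92 ± 0.21 and 6.74 ± 0.45 (SD, n = 4), which is a difference of 1.82 (SE 0.21), or 3.53-fold. The other LAMB1 probe set (MmugDNA.22537.1.S1_s_at), whose suffix marks probes that can match more than 1 transcript, read 3.38, 3.40, 3.74 and 3.30 before hCG. After hCG it read 7.17, 5.44, 5.37 and 7.38. Its difference was 2.89 (SE 0.44), or 7.39-fold, with a gap of 1.63 between the groups.

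In both LAMB1 probe sets the arrays after hCG fell into a higher pair, arrays 1 and 4, and a lower pair, arrays 2 and 3. The pairs lay further apart on the second probe set, with an SD of 1.08 over the 4 arrays against 0.45 on the first. Before hCG, the spread of both probe sets was narrow, with SDs of 0.21 and 0.20. Since the signal before hCG was low, the size of the LAMB1 difference depended on the low end of the scale: with 32 added to each intensity it was 1.16 on the brighter probe set and 1.45 on the other. The same held for the dimmer probe sets of the other members, which differed by 0.52 (FN1) and -0.39 (LAMA1) with 32 added.

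LAMA1 moved the other way from a high signal. Its brighter probe set (MmugDNA.39626.1.S1_at) read 10.28, 10.46, 10.66 and 10.46 before hCG and 9.02, 9.07, 9.42 and 8.87 after it. Of the 6 probe sets this one had the smallest SD in each group, at 10.46 ± 0.15 and 9.09 ± 0.23 (SD, n = 4). The difference was -1.37 (SE 0.14), so the signal was 2.59-fold lower after hCG, with a gap of 0.86. The other probe set (MmugDNA.7022.1.S1_at) read 6.13, 6.21, 5.82 and 5.93 before hCG and 5.69, 5.48, 5.00 and 5.38 after it, a difference of -0.64 (SE 0.16) with a gap of 0.13. Within the groups the LAMA1 probe sets did not follow each other: their deviations from the group means had the same sign in 2 of 8 arrays, against 6 of 8 for LAMB1.

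**Figure D1:**
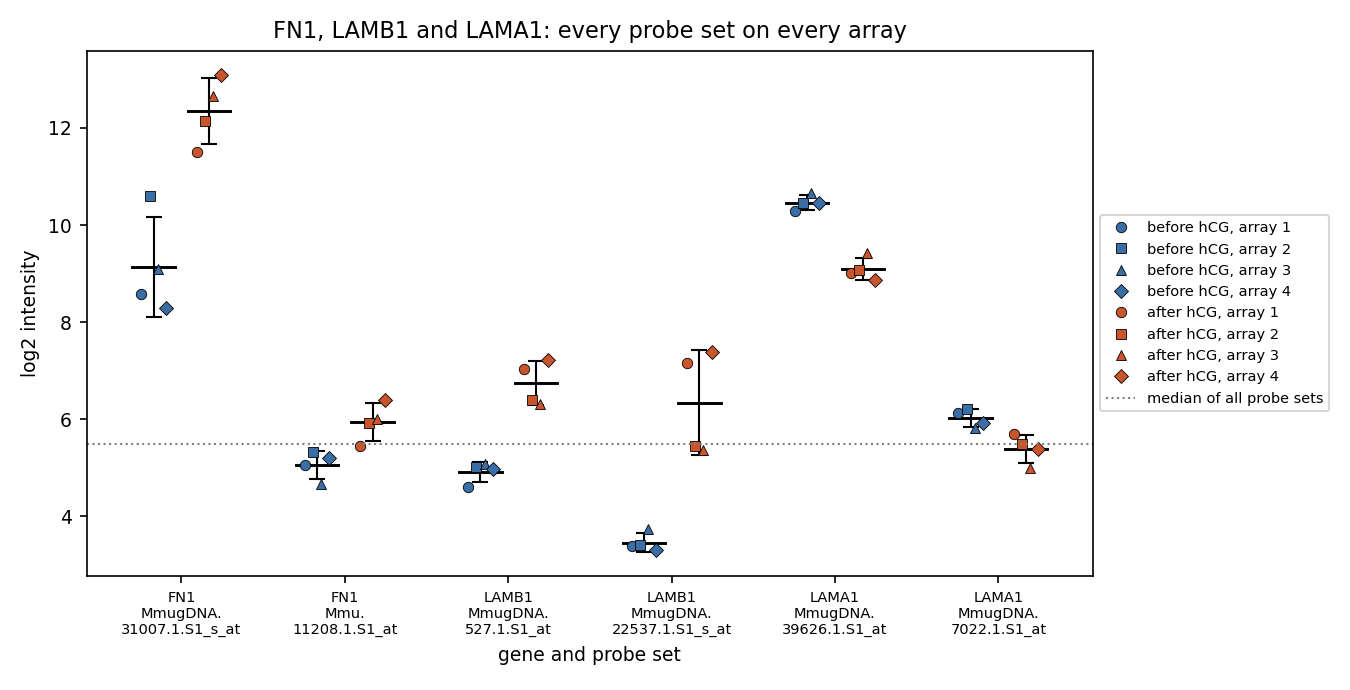
Log2 intensity (vertical axis) of the 6 probe sets of FN1, LAMB1 and LAMA1 (horizontal axis) on each of the 8 arrays; symbols mark arrays 1 to 4, blue before and orange after hCG, with bars for mean ± SD (n = 4) and a dotted line at the median of all probe sets. The groups do not overlap in any probe set, array 2 before hCG is high for FN1, and arrays 1 and 4 after hCG are high for LAMB1.

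Among all 14132 genes, each taken at the probe set with the highest mean, the difference of FN1 was the 126th highest and that of LAMB1 the 403rd highest, and that of LAMA1 was the 312th lowest. The median difference over all genes was -0.09.

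The other laminin chains were then compared between the groups. Of the 12 laminin chain genes listed, 9 were measured by a probe set with a single symbol, and 7 of these are neither LAMA1 nor LAMB1. Of the 7, 2 rose, 1 fell and 4 did not pass, and their median difference was 0.11. Of all genes, 23.8% were past the threshold, 11.3% higher and 12.5% lower, and the groups did not overlap for 27.2%, 11.8% higher and 15.4% lower. The other genes listed were not analysed here. The suffixes A, B and C in these symbols name the alpha, beta and gamma chains.

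LAMC1, the gamma chain shared by most laminins, rose. It read 10.10, 10.42, 10.26 and 10.13 before hCG and 11.28, 10.94, 11.58 and 11.67 after it. The groups did not overlap, and the log2 difference was 1.14 (SE 0.17, adjusted p = 0.00107). LAMA3, an alpha chain best known from the laminin of skin and other lining epithelia, read 6.51, 5.88, 6.63 and 6.81 before hCG and 7.68, 7.95, 8.76 and 7.15 after it, and rose by 1.43 (SE 0.32, adjusted p = 0.0105). The increase of LAMA3 was seen on 1 of its 4 probe sets, and the average of the 4 differed by 0.36 (adjusted p = 0.104).

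LAMA4, an alpha chain typical of blood vessels, was the measured chain that fell besides LAMA1. It read 7.66, 7.11, 6.80 and 7.35 before hCG and 6.84, 6.08, 6.10 and 6.42 after it, a difference of -0.87 (SE 0.22, adjusted p = 0.018), with 1 array after hCG above the lowest array before it. Leaving out array 4 before hCG or array 2 after hCG ended the call, at adjusted p = 0.0516 and 0.0511. Its other probe set differed by 0.03. LAMB2, the beta chain that can take the place of LAMB1 in the trimer, differed by 0.11 (SE 0.18, adjusted p = 0.698), with overlapping groups. The differences were -0.24 for LAMA2 (adjusted p = 0.426), 0.07 for LAMB4 (adjusted p = 0.763) and 0.15 for LAMC3 (adjusted p = 0.566).

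**Figure D2:**
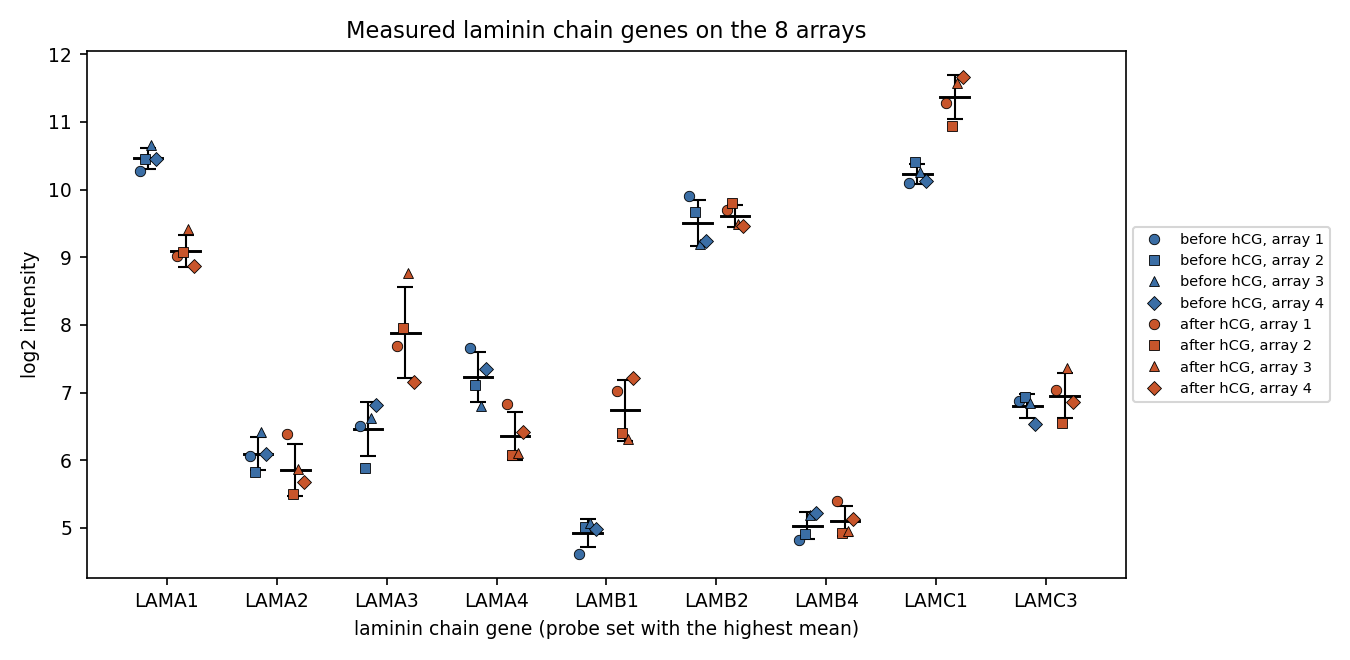
Log2 intensity (vertical axis) of the 9 measured laminin chain genes (horizontal axis), each at its probe set with the highest mean, with 1 symbol per array, blue before and orange after hCG, and bars for mean ± SD (n = 4). LAMB1, LAMC1 and LAMA3 are separated upwards, LAMA1 is separated downwards, and the groups overlap for the other 5.

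Laminin networks are tied to a collagen IV network by nidogens and heparan sulfate proteoglycans. Of 22 such basal lamina partners, 17 were measured: 1 rose, 3 fell and 13 did not pass, with a median difference of -0.11. The share past the threshold was 23.5%, against 23.8% of all genes. HSPG2, the proteoglycan perlecan, fell from 11.71 ± 0.28 to 10.93 ± 0.20 (log2 difference -0.78, SE 0.16, adjusted p = 0.00663), and both of its probe sets fell. COL4A4, a collagen IV chain, fell from 9.38 ± 0.64 to 8.11 ± 0.45 (SD, n = 4; difference -1.27, SE 0.32, adjusted p = 0.0181). Its call was lost without array 3 before hCG (adjusted p = 0.0544) or array 2 after hCG (adjusted p = 0.0504).

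COL15A1, a collagen found next to basement membranes, fell by 1.22 on its brighter probe set (adjusted p = 0.00371). Its other probe set was higher by 3.68, so that the average of both rose by 1.23 (adjusted p = 0.00417), and no direction can be given for the gene. COL18A1, the collagen that contains endostatin, rose by 0.99 (SE 0.28, adjusted p = 0.0319). That call was lost without arrays 3 or 4 before hCG and arrays 1, 2 or 4 after hCG (adjusted p between 0.0559 and 0.0849), and its other probe set differed by -0.37. NID1, the nidogen that binds the laminin gamma chain and which was picked after its values were seen, differed by 0.38 (adjusted p = 0.126), and by 1.29 on its other probe set, which was past the threshold.

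Of 30 genes of the interstitial matrix in which fibronectin is laid down, 26 were measured: 5 rose, 1 fell and 20 did not pass, with a median difference of 0.01. The share past the threshold was 23.1%, against 23.8% of all genes. The largest increase was that of EFEMP1, a fibulin, which read 6.26, 6.11, 5.19 and 5.36 before hCG and 11.08, 10.02, 10.98 and 11.52 after it. Its difference was 5.17 (SE 0.34, adjusted p = 9.46e-06), or 36.0-fold, on 1 probe set and 0.74 on the other, both past the threshold. LOXL1, an enzyme that cross-links elastic fibres, rose by 1.89 (SE 0.27, adjusted p = 0.000917) with no overlap between the groups.

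LOX, the lysyl oxidase that cross-links collagen and elastin, varied widely. It read 9.70, 6.73, 7.42 and 7.18 before hCG and 9.47, 9.64, 12.28 and 11.86 after it, so that array 1 before hCG was above 2 arrays of the other group. Its difference was 3.06 (SE 0.79, adjusted p = 0.0196), and 3.70 without array 1 before hCG. The call was lost without arrays 2, 3 or 4 before hCG (adjusted p between 0.0542 and 0.0588). It rested on 1 of 3 probe sets, and their average differed by 1.83. THBS1, thrombospondin, and COL6A1, a collagen VI chain, both picked after their values were seen, were the other genes that rose, by 1.15 (adjusted p = 0.00176) and 1.42 (adjusted p = 0.00295). COL6A1 rose on 1 of its 3 probe sets, whose average differed by 0.52. COL5A2, a fibril collagen, fell by 0.53 (adjusted p = 0.00532) on its brightest probe set, while the average of its 4 probe sets differed by 0.25 (adjusted p = 0.47).

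The collagens of loose connective tissue, which often accompany fibronectin in scars, did not pass. COL1A1 differed by -0.10 (adjusted p = 0.639), COL1A2 by -0.49 (adjusted p = 0.294) and COL3A1 by -0.15 (adjusted p = 0.504); these 3 were picked after their values were seen.

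Cells bind fibronectin and laminin mainly through integrins, which are pairs of an alpha and a beta subunit, and through dystroglycan and syndecans. Of 26 receptor genes listed, 20 were measured: 3 rose, 4 fell and 13 did not pass, with a median difference of -0.05. That is 35%, against 23.8% of all genes. ITGA5 and ITGA4, partner subunits of the main fibronectin receptors, were not analysed here. ITGB1, the beta subunit that these receptors and most laminin receptors share, read 9.98, 10.10, 10.38 and 10.86 before hCG and 10.40, 11.17, 11.74 and 10.99 after it. The groups overlapped, and the difference of 0.74 (SE 0.28, adjusted p = 0.0881) passed only without array 1 after hCG (0.97, adjusted p = 0.0264).

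Of the receptors of laminin, ITGA6 and DAG1 fell. ITGA6, the alpha subunit of laminin-binding integrins of epithelia, read 10.32, 10.36, 10.65 and 10.08 before hCG and 9.52, 9.27, 8.68 and 8.59 after it. Its difference was -1.34 (SE 0.22, adjusted p = 0.002) and 3 of its 4 probe sets fell, the other being at -0.04. DAG1, dystroglycan, which was picked after its values were seen, fell from 11.53 ± 0.15 to 10.66 ± 0.19 (difference -0.87, SE 0.13, adjusted p = 0.00125), with all 3 probe sets lower. ITGA7, another laminin-binding subunit, fell by 1.15 on its brightest probe set (adjusted p = 0.00029) but was higher by 2.83 on another, so no direction can be given for the gene; averaged over its 3 probe sets it was higher by 0.65 (adjusted p = 0.00189).

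ITGA3, a further laminin-binding subunit, differed by -0.45 (adjusted p = 0.0798) and ITGB4, the partner of ITGA6 in hemidesmosomes, by -0.27 (adjusted p = 0.25). Both were picked after their values were seen. ITGB5, whose integrin mainly binds vitronectin, fell by 1.04 (SE 0.16, adjusted p = 0.00151), with both probe sets lower.

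SDC1, a syndecan that binds fibronectin and laminin through its heparan sulfate chains, rose. It read 9.72, 10.67, 9.69 and 9.93 before hCG and 11.94, 11.15, 11.97 and 11.95 after it, a difference of 1.75 (SE 0.26, adjusted p = 0.00103). Of its 4 probe sets 3 rose, the other being at 0.22, and the average was 1.24. The values given are those of MmugDNA.27367.1.S1_x_at. Another that rose, MmugDNA.27367.1.S1_at, has the same name but for the suffix, so these may not be separate readings. CD151, a tetraspanin that associates with laminin-binding integrins, rose by 0.77 (SE 0.10, adjusted p = 0.000438), with values of 9.20 to 9.35 before and 9.96 to 10.12 after hCG. ITGA2, a collagen- and laminin-binding subunit, rose by 1.51 (SE 0.48, adjusted p = 0.0458), but its groups overlapped. That call held in 1 of the 8 fits that left out an array, the one without array 3 before hCG, and in the others the adjusted p lay between 0.0518 and 0.122. It was also lost with its 2 probe sets averaged (1.07, adjusted p = 0.083).

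Inside the cell, integrins are linked to actin by adapter proteins of focal adhesions. The list of 28 genes holds such adapters along with kinases and other proteins of integrin adhesion. Of these genes 26 were measured: 11 rose, none fell and 15 did not pass. The median difference was 0.40. Of all genes 11.3% rose and 12.5% fell. The count of 11 was 8 after quantile normalization, with an intensity trend and with a replicate block. None fell in any of the alternative limma fits, and 0 genes were lower at an unadjusted p below 0.05. CAV1, caveolin, read 4.43, 5.48, 4.82 and 4.86 before hCG and 8.06, 7.62, 9.54 and 8.60 after it, a difference of 3.56 (SE 0.38, adjusted p = 0.000165), and all 3 of its probe sets rose. TNS3, a tensin, rose by 2.25 (SE 0.22, adjusted p = 9.58e-05). FERMT2, the kindlin that activates integrins, rose by 1.91 (SE 0.16, adjusted p = 4.24e-05) on its brightest probe set, and all 3 probe sets rose.

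The other genes of the list that rose, also picked after their values were seen, were TGFB1I1 by 1.81, LIMS1 by 1.32, FLNA by 0.97, ZYX by 0.90, ILK by 0.71, PXN by 0.71, ACTN1 by 0.54 and PARVA by 0.49. For PXN the groups overlapped, its other probe set differed by -0.28, and its call was lost with both averaged (0.21). The calls of PXN, ACTN1 and PARVA rested on adjusted p values of 0.0474, 0.0416 and 0.0478. They were lost in 7, 6 and 7 of the 8 fits without 1 array, the exceptions being array 3 after hCG for all 3 and array 2 before hCG for ACTN1. The other 8 genes stayed past the threshold in every fit that held them. TLN1 and PTK2, which encode talin and focal adhesion kinase and were picked after their values were seen, differed by 0.25 (adjusted p = 0.305) and 0.37 (adjusted p = 0.165).

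**Figure D3:**
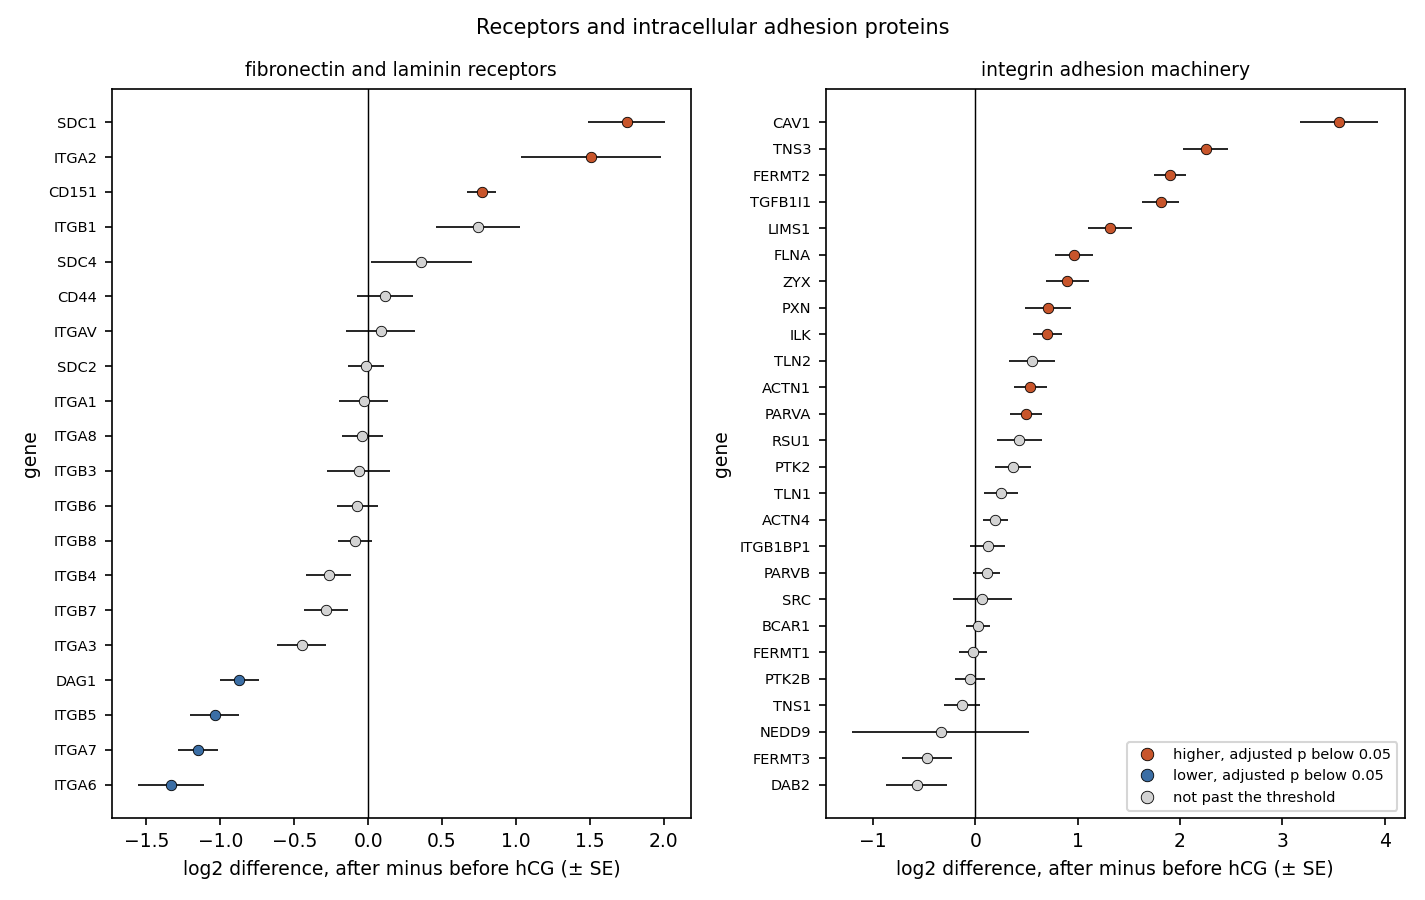
Log2 difference after minus before hCG with its SE (horizontal axis) for the 20 measured receptor genes (left) and the 26 measured genes of the adhesion machinery (right); orange and blue points are higher and lower at an adjusted p below 0.05 and grey points did not pass. Receptors lie on both sides of 0, with 3 higher and 4 lower, whereas all 11 genes of the machinery that passed are higher. Each gene is taken at its probe set with the highest mean. The 4 lower receptors include ITGA7, which was higher with its probe sets averaged.

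Genes whose profile over the 8 arrays was most like that of each member were found as the smallest root-mean-square difference between log2 profiles centred on their means. For FN1 these were TCEAL3, TDRD9, OSMR (the receptor of oncostatin M), L3MBTL4 and PDE7A (a phosphodiesterase of cyclic AMP), at 0.51 to 0.60 log2 units. For LAMB1 they were WNK3 (a kinase), ESYT2, ENOX2, FMO4 and CDC42BPA (a kinase), at 0.15 to 0.19. For LAMA1 they were COQ3 (of ubiquinone synthesis), TRIP13, MSH6 (of mismatch repair), AHCY (which hydrolyses S-adenosylhomocysteine) and NADK2 (a mitochondrial NAD kinase), at 0.10 to 0.13. No gene of the matrix and receptor lists was among these 15. Those lists hold only 9, 17, 26 and 20 measured genes of 14132, so nothing is read from this. The higher values of arrays 1 and 4 after hCG that LAMB1 showed were also seen in all 5 of its nearest genes, which the measure of likeness favours: WNK3 read 10.60, 10.08, 10.35 and 10.86, and ESYT2 read 11.60, 11.00, 11.07 and 11.83.

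**Figure D4:**
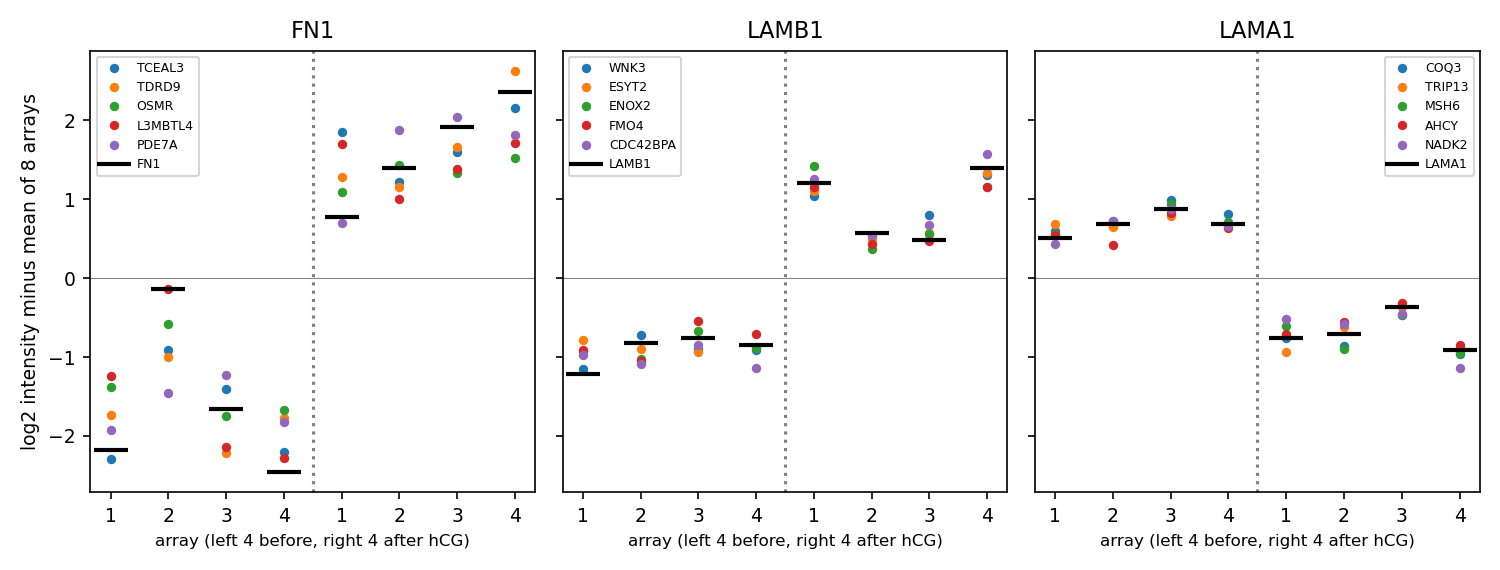
Log2 intensity minus the mean of the 8 arrays (vertical axis) for FN1, LAMB1 and LAMA1 (black bars) and the 5 genes nearest to each (coloured points), by array (horizontal axis), with arrays before hCG left of the dotted line and after hCG right of it. The nearest genes lie within 0.10 to 0.13 of LAMA1 as a root-mean-square difference and within 0.51 to 0.60 of FN1, whose own arrays spread more widely.

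The arrays had median log2 intensities of 5.44 to 5.54, and Pearson correlations across probe sets were 0.984 to 0.988 before hCG, 0.975 to 0.984 after hCG and 0.935 to 0.957 between the groups. Granulosa markers ranged in signal. INHA, an inhibin subunit and the brightest of them, was at 14.07 ± 0.08 before and 13.50 ± 0.19 after hCG. INHBB was at 8.29 ± 0.50 and 5.79 ± 0.46, and AMH at 7.43 ± 0.29 and 6.75 ± 0.24. Of 8 measured markers 7 fell (CYP19A1, INHA, INHBA, INHBB, AMH, HSD17B1 and NR5A2), against 12.5% of all genes. FST, follistatin, did not pass. The call of AMH was lost in 3 of the 8 fits without 1 array (adjusted p up to 0.0574). FSHR and FOXL2 were not analysed here.

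Other cells of the ovary also make fibronectin and laminins, so their markers were measured in the same way; fewer cells of a type and less RNA per cell cannot be told apart in bulk samples. Of 9 fibroblast and stroma markers, 1 rose (TAGLN, by 0.42, adjusted p = 0.026, and not past the threshold in 5 of the 8 fits without 1 array). Their summed linear intensity was 1047 to 1827 before and 1014 to 1731 after hCG. The brightest genes weigh most in such a sum, as MYH11 did in array 1 before hCG, where it read 9.90. A sum is thus not read as the level of a whole list, here or for the other cell types. Of the stroma markers, LUM, picked after its values were seen, was below the array median. It was at 3.74 ± 0.15 before and 3.52 ± 0.21 after hCG. DCN differed by 0.92 (adjusted p = 0.0844). It read 9.52, 7.83, 9.63 and 8.89 after hCG against 7.95 to 8.15 before it. MYH11 differed by -0.16 and COL1A2 by -0.49.

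Of 11 endothelial markers, 1 rose (ENG, by 0.57, adjusted p = 0.00296), with sums of 709.7 to 831.3 before and 804.1 to 1354 after hCG. The other probe set of ENG differed by -0.27, and the average of both by 0.15 (adjusted p = 0.259). PECAM1 was at 6.70 ± 0.34 before and 6.71 ± 0.69 after hCG (SD, n = 4), and KDR, picked after its values were seen, was below the array median in both groups. VWF, the clotting factor of endothelium, read 9.10, 6.80, 5.88 and 7.58 after hCG against 5.77 to 6.29 before it (difference 1.26, adjusted p = 0.138; 1.74 and 0.0217 without array 3 after hCG), and its other probe set differed by -0.18. Its highest arrays, 1 and 4, were those in which LAMB1 was highest. This order was seen in 3 of the 11 endothelial markers (VWF, TIE1 and KDR) and not in the other 8, such as PECAM1 and CDH5. Arrays 1 and 4 after hCG were also highest in 3 of 7 theca markers (GLI1, NR2F2 and WT1). The same held for 2 of 9 leukocyte (CD68 and CSF1R), 1 of 9 stroma (MYH11) and 1 of 9 oocyte markers (OOSP1). It held for 0 of 8 granulosa markers. After hCG, TIE1 spanned only 5.51 to 5.64 and KDR only 3.67 to 3.94. The share of all genes with this order was not counted, so nothing is read from these counts. The part of endothelial RNA in the LAMB1 difference was not tested.

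Of 7 theca markers, 3 rose (WT1, which granulosa cells and the surface epithelium also express, by 3.94, CDH11 by 1.42 and GLI2 by 0.89) and 1 fell. WT1 and GLI2 rose on 1 of 2 probe sets each, and the averages were 2.04 for WT1 and 0.34 for GLI2 (adjusted p = 0.223). The sums were 460.1 to 668.2 before and 720.1 to 1355 after hCG. They include WT1, whose log2 intensity was 3.95 to 5.13 before and 7.68 to 9.34 after hCG. The sums are therefore not read as a rise of the whole theca list. The one that fell was CYP17A1, the defining enzyme of theca cells, which was below the array median at 5.02 ± 0.13 before and 4.55 ± 0.21 after hCG; its other probe set differed by 0.08. NR2F2, the brightest of the list, differed by 0.45 (adjusted p = 0.247), PTCH1 by 0.60 and GLI1 by -0.30. The calls of CDH11, GLI2 and CYP17A1 were each lost in 3 to 6 of the 8 fits without 1 array.

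Of 9 leukocyte markers none rose at the threshold and 1 fell (CSF1R, the receptor of a macrophage growth factor, log2 difference -2.09, adjusted p = 0.000152), with sums of 1577 to 1812 before and 592.8 to 1754 after hCG. The lowest sum was in array 3 after hCG, where LCP1, an actin bundler of blood cells, read 5.29 and FN1 read 12.66. CD68, a lysosomal protein of macrophages picked after its values were seen, was higher at an unadjusted p below 0.05 (difference 0.84, adjusted p = 0.0502). It read 7.17, 6.47, 5.88 and 7.09 after hCG, highest in arrays 1 and 4 as LAMB1 was. It passed after quantile normalization (adjusted p = 0.0425), median centring (0.0463), with an intensity trend (0.0446), with a replicate block (0.0382) and without array 3 after hCG (0.00473), while its other probe set differed by -0.62. TYROBP differed by -0.09 and LCP1 by -0.10. None of 9 oocyte markers passed (1 was lower and 0 were higher at an unadjusted p below 0.05); ZP4, an egg coat protein, differed by 0.31, OOSP1 by -0.32 and ZP1 by -0.21. The part of these cell types in the differences of FN1, LAMB1 and LAMA1 was not tested.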

How the data were processed

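The authors deposited 1 table of probe set intensity values for 8 Affymetrix arrays, which the submitters' processing notes say were made with Affymetrix Expression Console and RMA. The software versions are given by no source used here. Per the labels' protocols, 50 ng of total RNA was amplified linearly and labelled with biotin. The values are on a linear scale, so log2 was taken and nothing else was changed; 99 control rows of 52865 were left out. Symbols came from GEO's platform annotation, in which 24956 probe sets have a single symbol, 361 have several and 27449 have none; 24616 were checked against a current table by gene ID. Detection calls were not used here, so a low signal is not read as absence. Precision is limited by having 4 arrays per group.

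Groups were compared with limma 3.58.1 (lmFit, eBayes) in R 4.3.3, with Benjamini-Hochberg adjustment over 52766 probe sets or 14132 genes, each at its probe set with the highest mean, and a threshold of 0.05. The procedure was tested on simulated data. The members, the 5 gene lists and the 6 marker lists were chosen with earlier results of these data known. Named genes are all laminin chains, up to 3 per direction and other list, the 5 genes nearest to each member, and markers past the threshold or among the 3 brightest of a list, plus those said to be picked later. Replicate numbers are not said to mark shared animals. Sequences and genome positions were not used here. Alternatives are given in the closing section.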

Additional observations from a re-analysis of the deposited data

Results flagged for a closer look

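Each group of 4 arrays was examined, for the genes named and the 6 probe sets of FN1, LAMB1 and LAMA1, for an array whose gap to its nearest neighbour takes up most of the group's range (Dixon's criterion at the 95% level). Of 194 groups 11 met it, where chance gives about 1 in 20. None of the 6 probe sets of FN1, LAMB1 and LAMA1 did.

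Before hCG, array 4 stood low for the adhesion genes ACTN1 (7.64, nearest 8.13) and PARVA (9.70, nearest 10.15). After hCG, array 4 stood high for NID1 (7.27, nearest 6.76) and LIMS1 (9.41, nearest 8.77) and low for ZYX (11.58, nearest 12.26). ACTN1 was low in array 3 after hCG (8.24, nearest 8.65). SDC1 read 11.15 in array 2 after hCG, with the nearest array at 11.94. PDE7A, among the genes nearest to FN1, read 9.05 in array 1 after hCG, with the nearest at 10.17. Of the markers, INHA was high in array 2 (13.77, nearest 13.43), GLI1 high in array 1 (6.65, nearest 6.48) and PTCH1 low in array 3 (5.79, nearest 6.88), all after hCG.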

How the results depend on the processing

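No difference of FN1, LAMB1 or LAMA1 changed sign. Leaving out an array, adding 32 or blocking on replicate could not change it, since the groups did not overlap. Averaging could not either, since both probe sets of each gene had the same direction. Nothing is therefore read from the unchanged signs. With probe sets averaged, the sign turned for COL15A1 (-1.22 to 1.23), ITGA7 (-1.15 to 0.65) and COL5A2 (-0.53 to 0.25). With 32 added to each intensity, the difference was 1.16 and 1.45 for LAMB1, 3.13 and 0.52 for FN1, and -0.39 on the dimmer LAMA1 probe set. Averaging the probe sets gave 2.05 for FN1, 2.35 for LAMB1 and -1.003 for LAMA1. Without 1 array the brighter probe sets differed by 2.93 to 3.70 (FN1), 1.66 to 1.96 (LAMB1) and -1.48 to -1.29 (LAMA1). Basal lamina partners that rose numbered 0 after quantile normalization and with 32 added, 3 with probe sets averaged, and 0 to 2 without 1 array. With low signals filtered LAMA4 and LAMB1 were no longer tested, so that 1 laminin chain fell and 2 rose; those that fell numbered 1 to 2 without 1 array. Fibronectin matrix partners that fell numbered 0 with probe sets averaged and 1 to 2 without 1 array. Of 123 values (member differences and counts) under another normalization, filter, offset or model, 111 stayed within the replicate spread or within 1.5 times the count, as did 150 of 160 without 1 array. With the replicate block 1509 genes rose and 1554 fell, against 1595 and 1764 without it. In the adhesion machinery 8 genes rose in place of 11. The block cannot change a difference, since each replicate number occurs once in each group. The member differences under the block were thus bound to be among the 111. Median centring moved every member difference by the same amount, which was smaller than the replicate spread. The member differences without 1 array were likewise bound to be among the 150. Leaving out 1 of 4 arrays cannot move a group mean by as much as the replicate spread. Same-numbered arrays correlated at -0.03 to 0.17 in their deviations, so the numbers were not taken as pairs.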
